A study of Danio rerio with 23 samples.

Results

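The DKO larvae, which lack glo1 and akr1a1a, were compared with AKR1A1AKO larvae, which lack akr1a1a alone. The comparison follows the loss of glo1 in zebrafish in which akr1a1a is already lost. Of the 23 RNA-seq libraries of the series, the 11 labelled DKO (6 libraries) or AKR1A1AKO (5 libraries) were chosen by genotype, and all 19745 genes that passed a filter on low counts in them were tested. The other 12 libraries, 6 from WT and 6 from GLO1KO larvae, enter where the loss of glo1 with akr1a1a intact is set beside it. Every larva of the series carried the transgene Tg(fli1:EGFP), in which the fli1 promoter drives a green fluorescent protein in endothelial cells, and was left untreated until 96 hpf (hours post fertilization). Each library was made from a pool of 20 whole larvae of 1 clutch, so a clutch is the replicate. The GLO1KO and AKR1A1AKO lines had each been made by CRISPR/Cas9, and the DKO line came from crossing them and intercrossing the double heterozygotes. By the paper's account, that intercross also gave the corresponding wild type line. Whether AKR1A1AKO and DKO clutches had parents in common, and from how many founders the lines descend, is not given in the sources used here, so differences of genetic background between the lines cannot be told apart from the loss of glo1.

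Methylglyoxal, a dicarbonyl formed as a side product of glycolysis, reacts with free glutathione, and glyoxalase I (Glo1) turns the adduct into S-D-lactoylglutathione, from which glyoxalase II (Hagh) releases D-lactate and glutathione. Aldo-keto reductases such as Akr1a1a and Akr1b1 reduce methylglyoxal and other aldehydes, acrolein among them, at the cost of NADPH, and aldehyde dehydrogenases oxidize aldehydes to acids. In AKR1A1AKO larvae the glyoxalase route is therefore present beside the remaining reductases and dehydrogenases, and in DKO larvae it is not.

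Total counts per library ran from 34455907 to 35676522 in AKR1A1AKO and from 34690759 to 35098800 in DKO larvae, with 21337 to 21453 genes counted at least once in each of these libraries. On the first principal component of the 11 libraries (38.3% of the variance) AKR1A1AKO libraries scored -110.6 to -65.6 and DKO libraries 67.5 to 83.6. The genotype accounted for 37.7% of the squared distances between the libraries (scaled log2 CPM, exact permutation test over 462 splits, p = 0.00216, the smallest these group sizes allow). Of 47 markers of 12 cell types, 25 matched 1 gene each, and none of these was below 2.53 CPM in any of the 11 libraries. Fewer cells of a type and less RNA per cell cannot be told apart in RNA from whole larvae.

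**Figure D1:**
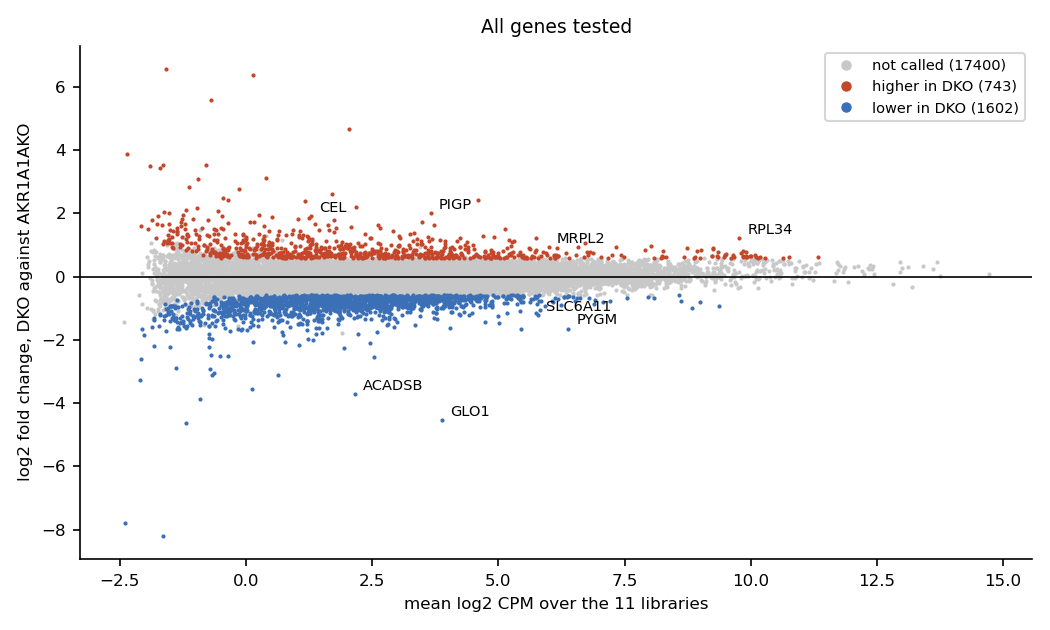
Log2 fold change between DKO and AKR1A1AKO larvae (vertical axis) against the mean log2 CPM over the 11 libraries (horizontal axis) for each of the 19745 genes tested. Red points are the 743 genes called higher and blue points the 1602 genes called lower in DKO larvae, grey points the genes not called, and the names mark 8 genes whose levels are plotted by library.

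Levels are given below in CPM (counts scaled to the library total with edgeR's TMM factors) and differences as log2 fold changes of DKO against AKR1A1AKO with their standard error (SE). A gene was called when its Benjamini-Hochberg adjusted p over all genes tested, from edgeR's quasi-likelihood test, was below 0.05 and its fold change above 1.5. AKR1A1AKO levels are listed in the order of replicates 1 to 5, and DKO levels as the lowest, the median and the highest of the 6 libraries.

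The targeted gene glo1 (ENSDARG00000068978) was at 82.1, 80, 83.3, 74.5 and 86.9 CPM in the AKR1A1AKO libraries and at 2.72, 3.68 and 4.16 CPM in the DKO libraries. The groups were far apart in every library, and 89 to 137 counts of glo1 per library were still found in DKO larvae. The log2 fold change was -4.53 (SE 0.0914, adjusted p = 5.73e-14), which matches the glo1 genotypes in the labels. The akr1a1a genotype was not checked here, since which of the zebrafish akr1a1 genes the single AKR1A1 entry (ENSDARG00000052030) of the name table stands for is not given there. That gene was at 17.1 ± 1.17 CPM (SD, n = 5) in AKR1A1AKO and 15.8 ± 1.14 CPM (SD, n = 6) in DKO larvae (log2 fold change -0.12, adjusted p = 0.16, not called), and these groups overlapped.

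Of the 19745 genes tested, 743 (3.76%) were called higher and 1602 (8.11%) lower in DKO larvae, together 2345 genes or 11.9%. An unadjusted p below 0.05 was reached by 9744 genes, and an adjusted p below 0.05 with no fold threshold by 8117 (41.1%), with 3992 (20.2%) higher and 4125 (20.9%) lower, so most differences were smaller than 1.5-fold. The CPM ranges of the groups did not overlap for 4734 genes (24.0%), with 2309 (11.7%) higher and 2425 (12.3%) lower in DKO larvae. The log2 fold change lay between -0.767 and 0.567 for the middle 90% of genes, with a median SE of 0.093. Scaling by library size alone lowered the median over all genes from 0.012 to -0.11 and turned the split to 426 genes higher and 2386 lower, so every direction given here holds for the TMM scaling. Those factors were 1.0075 to 1.0659 in AKR1A1AKO and 0.9454 to 0.9693 in DKO larvae.

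Besides glo1, the genes of at least moderate level (mean log2 CPM above 1, ranges that do not overlap) that fell most in DKO larvae included ACADSB (ENSDARG00000098174), 1 of 2 genes under the symbol of an acyl-CoA dehydrogenase of isoleucine breakdown. It was at 21.2, 17.5, 22.7, 21.5 and 13.8 CPM in AKR1A1AKO and at 0.483, 1.21 and 3.0 CPM in DKO libraries, a log2 fold change of -3.73 (SE 0.271, adjusted p = 2.5e-07). The other ACADSB gene (ENSDARG00000076780) rose, from 36.5, 38.7, 36.7, 31.2 and 51.5 CPM to 63.5, 72.6 and 78.3 CPM (log2 fold change 0.86, SE 0.102, adjusted p = 1.24e-05). Reads of the pair may have been shared in the counting. ME1 (ENSDARG00000053215), the cytosolic malic enzyme that supplies NADPH, fell from 4.99, 5.05, 4.6, 4.17 and 4.32 CPM to 0.577, 0.94 and 1.55 CPM, a log2 fold change of -2.15 (SE 0.206, adjusted p = 2.02e-06). TRPM2 (ENSDARG00000101641), a calcium channel opened by ADP-ribose and oxidants, was at 10.3, 8.42, 7.9, 13.6 and 5.61 CPM in AKR1A1AKO and 1.36, 1.72 and 3.05 CPM in DKO libraries and fell by 2.26 on the log2 scale (adjusted p = 2.57e-06). The peroxisomal enzyme of D-aspartate breakdown, ddo (ENSDARG00000079664), fell by 1.82 (adjusted p = 4.84e-06), with 5.57, 5.32, 5.03, 4.25 and 5.91 CPM in AKR1A1AKO and 0.821, 1.48 and 2.05 CPM in DKO libraries. Each of these genes but the second ACADSB gene was lower in all 6 DKO libraries than in any AKR1A1AKO library. The remaining 5 of the 10, ENSDARG00000114941, si:ch73-364h19.2, si:ch73-197b13.1, si:dkey-14d8.6 and zgc:158862, carry names that give no role here and fell by 1.78 to 2.54 on the log2 scale.

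Among the genes that rose most, loc101882496 (ENSDARG00000098256) was at 2.07, 1.14, 0.201, 0.222 and 0.438 CPM in AKR1A1AKO and 13, 22 and 28.8 CPM in DKO libraries. Its DKO replicates 1 to 4 (20.2 to 28.8 CPM) lay above replicates 5 and 6 (13.5 and 13 CPM), and replicate 1 was the highest of the AKR1A1AKO libraries. The gene arhgap4a (ENSDARG00000039265), named as a GTPase-activating protein, rose from 1.52, 1.22, 1.03, 1.03 and 1.2 CPM to 5.45, 7.15 and 9.82 CPM (log2 fold change 2.61, SE 0.2, adjusted p = 3.23e-07). PIGP (ENSDARG00000038805), a subunit of the enzyme that starts glycosylphosphatidylinositol anchors, rose from 5.35, 6.57, 6.15, 5.59 and 6.05 CPM to 16.8, 25.2 and 30.8 CPM (log2 fold change 2.01, SE 0.158, adjusted p = 3.82e-07). SPTSSB (ENSDARG00000091658), a small subunit of serine palmitoyltransferase, the first enzyme of sphingolipid synthesis, was at 1.38, 2.58, 1.93, 1.39 and 1.31 CPM and 4.59, 5.54 and 8.49 CPM and rose by 1.8 on the log2 scale (adjusted p = 1.3e-05). For PIGP, arhgap4a and si:ch211-39f2.3 (ENSDARG00000097539) DKO replicates 1 to 3 were higher than 4 to 6, which left the difference from AKR1A1AKO in place, since no DKO library reached the AKR1A1AKO range. CEL (ENSDARG00000029822), a lipase of the exocrine pancreas, is described with the digestive genes, and ENSDARG00000109852, si:dkeyp-55h4.2, si:dkeyp-2e4.3 and ENSDARG00000109678 rose by 1.84 to 2.43 on the log2 scale.

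**Figure D2:**
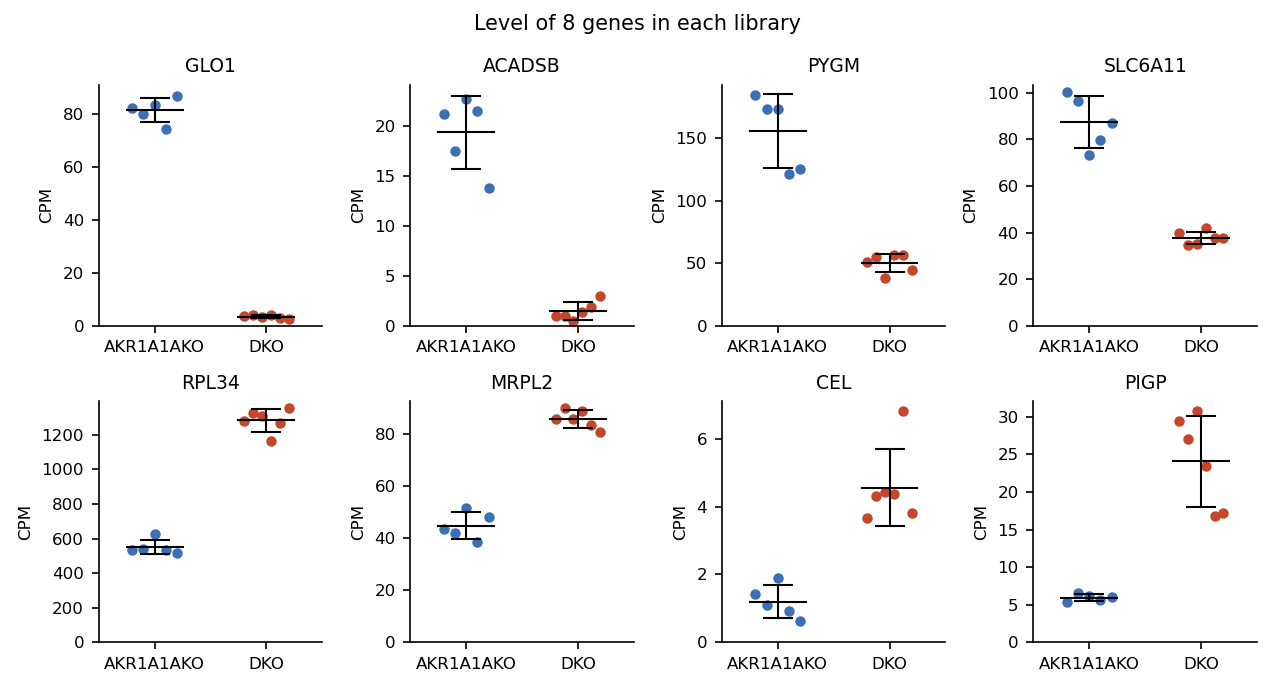
CPM (vertical axes, from 0) of 8 genes in each of the 5 AKR1A1AKO libraries (blue) and 6 DKO libraries (red), with the mean (horizontal line) and SD (bars). GLO1, ACADSB (ENSDARG00000098174), PYGM and SLC6A11 were lower and RPL34, MRPL2, CEL (ENSDARG00000029822) and PIGP higher in every DKO library than in any AKR1A1AKO library.

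Some of the largest differences were found in genes with few counts, which the level limit above leaves out and which were chosen after their values were seen. The zinc finger gene znf1156 (ENSDARG00000098800) had 54, 61, 81, 86 and 177 counts in the AKR1A1AKO libraries and a single count in DKO replicate 3, with 0 in the other 5, and si:dkey-15h8.17 (ENSDARG00000099428) had 13 to 34 counts in each AKR1A1AKO library and 0 in every DKO library. In the opposite direction si:ch211-160b11.4 (ENSDARG00000076122) had 0 or 1 count in the AKR1A1AKO libraries and 18 to 99 in the DKO libraries. SMC1A (ENSDARG00000055754), 1 of 2 genes under the symbol of a cohesin subunit, had 0, 1, 0, 0 and 17 counts in the AKR1A1AKO libraries and 195 to 351 in the DKO libraries. These genes were on in most libraries of one genotype and near the floor of detection in the other.

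Because WT and GLO1KO larvae were sequenced too, the genotypes that stood apart could be read from the CPM ranges of all 4 groups. Among the 1602 genes that fell, 608 (38%) were lower in every GLO1KO and every DKO library than in any WT or AKR1A1AKO library, the pattern of glo1 itself, against 4.59% of all genes tested. Among the 743 genes that rose, 162 (21.8%) were higher in both glo1 genotypes than in both others, against 4.79% of all genes tested. ME1 and PYGM are among the former and RPL34 and arhgap4a among the latter. In 50 genes that rose (6.73%), AKR1A1AKO was lower than each of the other 3 genotypes, DKO included, and in 30 that fell (1.87%) AKR1A1AKO was higher than each of them, against 0.415% and 0.334% of all genes tested. SMC1A, loc101882496, PIGP and the rising ACADSB gene had the former pattern, and the falling ACADSB gene, CALR and CCNF the latter. The mean of loc101882496 was 0.814 CPM in AKR1A1AKO larvae, against 12.8 CPM in WT, 12.4 CPM in GLO1KO and 20.9 CPM in DKO larvae. DKO libraries stood apart from all 3 other genotypes in 70 genes that rose (9.42%) and 117 that fell (7.3%), against 1.44% and 1.03% of all genes tested, and the latter included TRPM2, CPS1, ddo and SLC7A5. The shares are read from the same CPM ranges as the calls and are given as a description. Of the 22 called genes with a log2 fold change over 3 in size, 13 had overlapping CPM ranges in WT and DKO larvae. That overlap held for 58.5% of the genes that rose and 18.7% of those that fell, against 62.1% of all genes tested. Any part that the shared intercross of the wild type and DKO lines had in these patterns was not tested.

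The 50 named genes on each side of glo1, in the gene order of RefSeq on chromosome 13, were checked because a line bred for a mutation also keeps the stretch of chromosome around it. Of the 90 tested, 3 (3.33%) rose and 13 (14.4%) fell, against 3.76% and 8.11% of all genes, and their median log2 fold change was 0.02. The largest rise was that of si:dkeyp-2e4.3 (ENSDARG00000095283), from 0.828, 1.28, 0.891, 0.973 and 0.493 CPM to 4.26, 4.59 and 5.87 CPM, a log2 fold change of 2.41 (SE 0.187, adjusted p = 3.66e-07). ZBTB8OS (ENSDARG00000016368), a cofactor of tRNA ligation, rose by 1.04 and FBLN7 (ENSDARG00000089519), a fibulin of the extracellular matrix, by 0.90 on the log2 scale. The largest falls among these neighbours were those of disc1 (ENSDARG00000021895) by 1.97 and fam83ha (ENSDARG00000068849) by 1.25, and the smallest that of zgc:171482 by 0.59. MDGA1, FHIP2A, CDH23, CPEB3, MARVELD1, col19a1, TMEM63B, zc3h6 and ITGA9 were among those between them. zgc:171482 was not called without AKR1A1AKO replicates 2, 4 or 5 or DKO replicates 1, 2 or 3 (log2 fold change -0.57 to -0.53) and col19a1 without AKR1A1AKO replicate 1 (log2 fold change -0.67, adjusted p up to 0.0533).

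In all, 39 lists of genes of pathways, tissues and cell types were examined, holding 2542 different genes tested, of which 371 were called. No test of a list was run, and its counts and median are read beside those of all genes tested. Of those genes 3.76% rose and 8.11% fell, with a median of 0.01. Many rises and falls lay close to the 1.5-fold threshold, so the calls of named genes that were lost when 1 library was left out, and the list counts that moved by over 1.5 times, are given at the end of each paragraph. When only library size was scaled, the medians of the glycolysis, insulin, ATF4, arginine, chaperone, cartilage, photoreceptor, fatty acid oxidation, xenobiotic, immune, cell cycle, skin and early development lists turned from 0 or above to below 0. Of the 2345 calls, 1682 were made in every fit without 1 library.

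**Figure D3:**
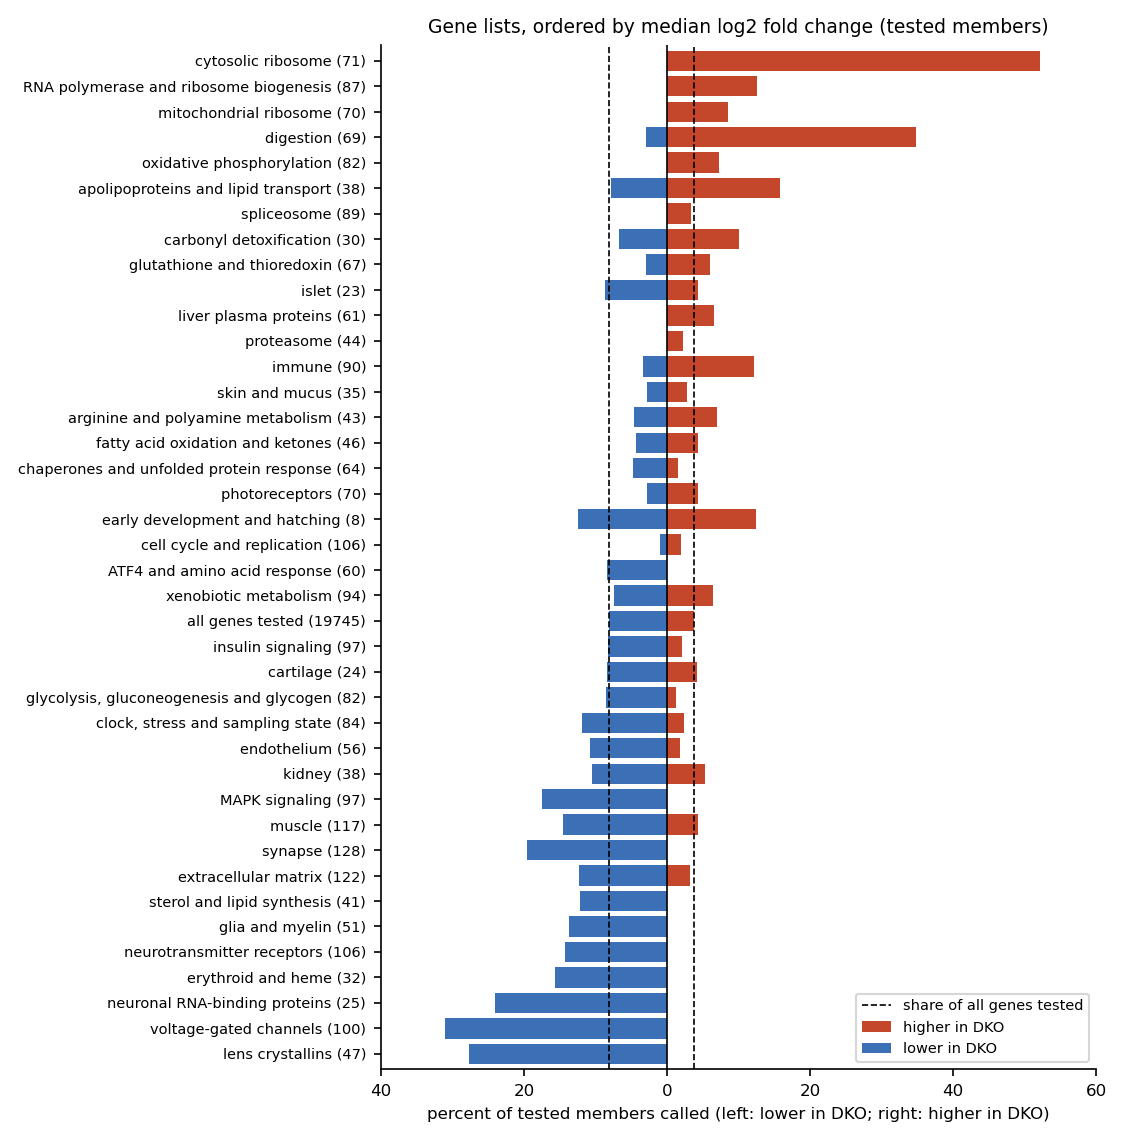
Percent of the tested members of each of 39 gene lists, and of all genes tested, called lower (blue, to the left) or higher (red, to the right) in DKO larvae, with the number of tested members in parentheses. Dashed lines mark the 8.11% lower and 3.76% higher of all genes tested, and the lists are ordered by their median log2 fold change, from 0.59 (cytosolic ribosome) at the top to -0.34 (lens crystallins) at the bottom.

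Genes of cytosolic ribosomal proteins rose in DKO larvae. Of 71 tested, 37 (52.1%) rose and 0 fell, and all 71 had a log2 fold change above 0 (0.23 to 1.21). The CPM ranges did not overlap for 69, whereas 11.7% of all genes tested were higher in DKO larvae with ranges apart. The median log2 fold change was 0.59, with 19 of 38 large subunit and 18 of 33 small subunit genes called. Their summed level was 58445 to 67638 CPM in the AKR1A1AKO libraries and 86129 to 92742 CPM in the DKO libraries. RPL34 (ENSDARG00000029500), a protein of the large subunit, was at 534, 542, 626, 534 and 519.6 CPM in AKR1A1AKO and 1166, 1296 and 1354 CPM in DKO libraries (log2 fold change 1.21, SE 0.0536, adjusted p = 3.73e-09). RPS28 (ENSDARG00000035860) of the small subunit rose by 0.91 (SE 0.0504) and RPL22 (ENSDARG00000070437) by 0.85 (SE 0.046) on the log2 scale. RPL8 (ENSDARG00000014867) and RPS14 (ENSDARG00000036629), among the most abundant transcripts that rose, changed by 0.59 and 0.61. The rises lay close to the 1.5-fold threshold, so that scaled by library size alone the median was 0.47 and 10 genes were called, whereas all 71 had an adjusted p below 0.05 in the TMM-scaled test. RPL8 was not called without AKR1A1AKO replicates 2 or 4 or DKO replicate 2 (log2 fold change 0.56 to 0.58).

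Smaller rises were found in genes that make or assemble ribosomes and RNA. In the list of RNA polymerases and ribosome biogenesis 11 of 87 (12.6%) rose and 0 fell (median 0.30). When only library size was scaled, 4 rose. The RNA polymerase III subunit polr3gla (ENSDARG00000012044) rose from 5.19, 5.43, 5.98, 4.89 and 6.57 CPM to 10.4, 11.2 and 12.2 CPM (log2 fold change 0.99, adjusted p = 1e-06), and POLR2F (ENSDARG00000036625), a subunit of RNA polymerases I, II and III, rose by 0.68. The ribosome assembly factors tsr2 (ENSDARG00000005772) and NIP7 (ENSDARG00000059075) rose by 0.85 and 0.70 on the log2 scale. Of the mitochondrial ribosomal proteins 6 of 70 (8.57%) rose and 0 fell (median 0.29). They were led by MRPL2 (ENSDARG00000062568), which went from 43.6, 42.2, 51.7, 38.6 and 48.2 CPM to 81, 85.9 and 90.3 CPM (log2 fold change 0.93, adjusted p = 2.07e-07). MRPL21, mrps26 and mrpl52 rose by 0.59 to 0.66. For the spliceosome the counts were 3 and 0 of 89 (median 0.21), so the share called higher, 3.37%, was near the 3.76% of all genes tested. The 3 were SNRPF (ENSDARG00000105037), a core Sm protein, LSM8 (ENSDARG00000091656), a protein bound to U6 RNA, and the splicing factor srsf3a (ENSDARG00000100815), higher by 0.64, 0.69 and 0.63. Adjusted p without a fold threshold was below 0.05 for 58 of the 87, 52 of the 70 and 57 of the 89 (each higher in DKO larvae). Of all genes tested, 20.2% were higher by that measure. When only library size was scaled the mitochondrial list had 1 rise and the spliceosome list 0. In the mitochondrial ribosome list, 3 rose without DKO replicate 3. mrpl52 was not called without AKR1A1AKO replicates 4 or 5 or DKO replicates 1, 3 or 5 (log2 fold change 0.56 to 0.58), mrps26 without AKR1A1AKO replicates 2 or 4 or DKO replicates 2 or 3 (log2 fold change 0.54 to 0.57), and srsf3a without AKR1A1AKO replicates 1 or 5 or DKO replicates 1 or 2 (log2 fold change 0.57 to 0.58).

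Oxidative phosphorylation genes, which encode the respiratory chain and ATP synthase, rose in 6 of 82 cases (7.32%) and fell in 0 (median 0.23). The ATP synthase subunits atp5mea (ENSDARG00000078113) and atp5mf (ENSDARG00000037867) rose by 0.79 (adjusted p = 1.52e-07) and 0.60 (adjusted p = 2.73e-07), the inhibitor of ATP synthase atp5if1a (ENSDARG00000067975) by 0.60 and NDUFA3 (ENSDARG00000041400) of complex I by 0.61. Atp5mea was at 31.7, 30.5, 29.4, 27.6 and 26.3 CPM in AKR1A1AKO and 48.1, 50.6 and 52.5 CPM in DKO libraries. By complex, 1 of 34 genes of complex I, 0 of 4 of complex II, 0 of 9 of complex III, 2 of 18 of complex IV and 3 of 17 of ATP synthase were called. COX7C (ENSDARG00000104537) and cox6b1 (ENSDARG00000045230) of complex IV, chosen after their values were seen, rose by 0.69 and 0.67. Scaled by library size alone, 1 gene of the list was called. Of the proteasome genes 1 of 44 (2.27%) rose and 0 fell, below the shares of all genes tested. It was psmb12 (ENSDARG00000031885), an immunoproteasome subunit, which went from 0.166, 0.272, 0.201, 0.111 and 0.164 CPM to 0.425, 0.566 and 0.619 CPM (log2 fold change 1.53, adjusted p = 0.000474). Of the 27 regulatory particle genes 0 were called. In the proteasome list, 2 rose without AKR1A1AKO replicate 1. atp5mf was not called without AKR1A1AKO replicate 5 (log2 fold change 0.58), atp5if1a without AKR1A1AKO replicates 4 or 5 or DKO replicates 4 or 5 (log2 fold change 0.57 to 0.58), and NDUFA3 without AKR1A1AKO replicate 4 or DKO replicate 1 (log2 fold change 0.58).

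**Figure D4:**
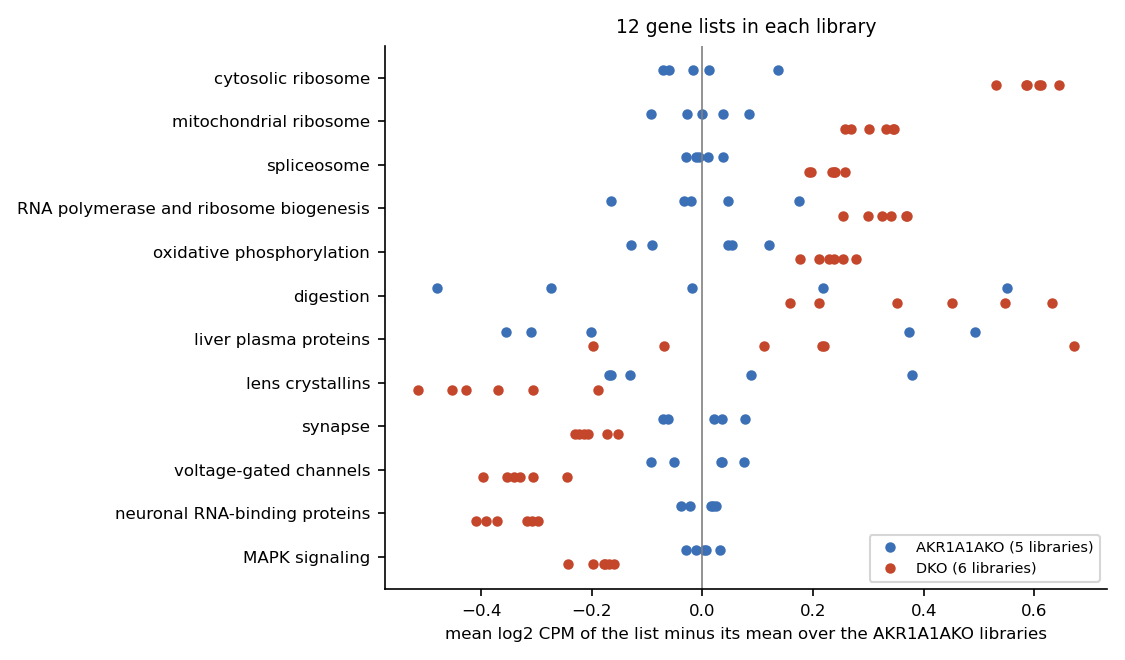
Mean log2 CPM of 12 gene lists in each library, less the mean over the AKR1A1AKO libraries (horizontal axis), for 5 AKR1A1AKO libraries (blue) and 6 DKO libraries (red). The groups do not overlap for the ribosomal, spliceosomal, RNA polymerase, oxidative phosphorylation, lens, neuronal and MAPK lists, and they overlap for digestion and liver plasma proteins, in which the AKR1A1AKO libraries are spread over -0.48 to 0.55 and -0.35 to 0.49.

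Neuronal genes were called in the opposite direction. Of 100 genes of voltage-gated channels, which carry the action potential, 31 fell and 0 rose (median -0.23), among them 3 of 7 sodium, 19 of 54 potassium and 9 of 39 calcium channel genes. The potassium channel genes kcnc3a (ENSDARG00000055855) and KCNA1 (ENSDARG00000062942) were among those with the smallest p. Kcnc3a was at 25.2, 22.2, 17.4, 18.8 and 21.2 CPM in AKR1A1AKO and 9.85, 10.7 and 11.3 CPM in DKO libraries (log2 fold change -0.98, SE 0.0876, adjusted p = 1.12e-06), and every DKO library was below every AKR1A1AKO library. KCNA1 fell by 0.90.

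At synapses 25 of 128 genes (19.5%) fell and 0 rose (median -0.09), with 15 of 59 adhesion and scaffold genes and 10 of 69 vesicle release genes lower. SLC17A6 (ENSDARG00000001127), 1 of 2 vesicular glutamate transporter genes under that symbol, was at 41.5, 37.5, 31.1, 32.9 and 36.7 CPM in AKR1A1AKO and 17.3, 18.3 and 20.5 CPM in DKO libraries (log2 fold change -0.97, SE 0.0731, adjusted p = 2.85e-07). ERC2 (ENSDARG00000105178) of the active zone fell by 1.26, the adhesion protein NLGN1 (ENSDARG00000077710) by 0.92 and NCAM1 (ENSDARG00000056181), the neural cell adhesion molecule, by 0.68. The vesicle release genes had a median of 0.02, while adhesion and scaffold genes had -0.22. Of 106 neurotransmitter receptor genes 15 (14.2%) fell and 0 rose (median -0.13). The muscarinic receptor gene CHRM2 (ENSDARG00000098612) fell from 4.19, 3.75, 2.7, 2.78 and 3.04 CPM to 0.582, 0.878 and 1.18 CPM (log2 fold change -1.86, SE 0.192, adjusted p = 3.76e-06), and gabbr1b (ENSDARG00000016667), a subunit of the GABA-B receptor, fell by 0.95. GRIK3 (ENSDARG00000077715) and GRM3 (ENSDARG00000031712), a kainate and a metabotropic glutamate receptor, fell by 0.79 and 1.06. In the neurotransmitter receptors list, 1 rose without AKR1A1AKO replicate 4.

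Of 25 neuronal RNA-binding proteins, which set the splicing of neuronal transcripts, 6 (24.0%) fell and 0 rose (median -0.20). The gene nova1 (ENSDARG00000020178) was at 57.2, 58.5, 43.1, 46.7 and 48.5 CPM in AKR1A1AKO and 18, 21.7 and 24.3 CPM in DKO libraries (log2 fold change -1.23, SE 0.0892, adjusted p = 2.5e-07), and CELF2 (ENSDARG00000002131) at 95.6, 94.3, 81.4, 88.5 and 89.2 CPM and 46.6, 53.3 and 56.9 CPM (log2 fold change -0.78, adjusted p = 3.36e-07). In both genes the DKO libraries lay wholly below the others. Celf5b (ENSDARG00000090727) and MBNL1 (ENSDARG00000052978) fell by 1.11 and 0.86. The neuronal marker ELAVL3 (ENSDARG00000014420) ran from 347 to 391 CPM in AKR1A1AKO and from 280 to 304 CPM in DKO libraries (log2 fold change -0.32, not called), while SYT1 (ENSDARG00000030614, 0.10) of the release machinery overlapped between the groups.

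Glial and myelin genes fell in 7 of 51 cases (13.7%) and rose in 0 (median -0.12). SLC6A11 (ENSDARG00000087981), a GABA transporter of astroglia, was at 100.3, 96.6, 73.4, 79.8 and 87.1 CPM in AKR1A1AKO and 34.6, 37.7 and 41.8 CPM in DKO libraries (log2 fold change -1.22, SE 0.0776, adjusted p = 1.13e-07). SLC1A3 (ENSDARG00000043148), a glial glutamate transporter, fell from 51.7, 56.3, 44.2, 45.5 and 48.7 CPM to 25, 27.7 and 31.1 CPM (log2 fold change -0.84, adjusted p = 7.79e-07), NOTCH1 (ENSDARG00000052094), a receptor of progenitor cells, by 0.63 and MYRF (ENSDARG00000078676), the transcription factor that turns on myelin genes, by 1.39. In the eye, 13 of 47 lens genes (27.7%) fell and 0 rose (median -0.34). BFSP2 (ENSDARG00000011998), a beaded filament protein of lens fibres, was at 44.8, 62.2, 39.6, 88 and 50.1 CPM in AKR1A1AKO and 17.2, 18.8 and 27.2 CPM in DKO libraries (log2 fold change -1.45, SE 0.182, adjusted p = 2.07e-05). The crystallin gene cryba1l1 (ENSDARG00000032929) fell from 591, 699, 561, 935 and 559 CPM to 286, 346 and 370.0 CPM (log2 fold change -1.0, adjusted p = 1.02e-05), and crybb1l1, cryba1b, CRYGN (ENSDARG00000030411) and crygm2d13, the next most abundant genes that fell, by 0.59 to 0.94. AKR1A1AKO replicate 4 was the highest library for each of these 6 genes, and without it 11 genes of the list were called. The lens water channel MIP (ENSDARG00000013963) fell by 0.67. HSF4 (ENSDARG00000013251), a heat shock factor needed for lens fibre cells, chosen after its values were seen, fell from 0.745, 1.38, 0.776, 2.2 and 0.848 CPM to 0.122, 0.321 and 0.613 CPM (log2 fold change -1.8, adjusted p = 0.00242). In the glia and myelin list, 1 rose without AKR1A1AKO replicate 5. NOTCH1 was not called without AKR1A1AKO replicate 1 (log2 fold change -0.56) and crygm2d13 without AKR1A1AKO replicates 2 or 4 or DKO replicates 2, 4 or 6 (log2 fold change -0.57 to -0.46).

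Photoreceptor genes were seldom called, with 3 of 70 (4.29%) higher and 2 (2.86%) lower (median 0.07), against 3.76% and 8.11% of all genes tested. GNGT2 (ENSDARG00000103543), a cone transducin subunit, rose from 944, 1098, 1058, 1144 and 769.8 CPM to 1439, 1516 and 1627 CPM (log2 fold change 0.60, adjusted p = 3.35e-05), and pde6ha (ENSDARG00000102558), a cone phosphodiesterase subunit, from 46, 53.5, 53.4, 65.7 and 129.6 CPM to 109, 132 and 160.2 CPM. AKR1A1AKO replicate 5 was within the DKO range of pde6ha, and the other 4 libraries were below it. The cone guanylate cyclase activator guca1c rose by 0.69. The green cone opsin opn1mw2 (ENSDARG00000044280) fell by 0.83 and the photoreceptor transcription factor nrl (ENSDARG00000100466) by 0.69. In the photoreceptors list, 5 rose without DKO replicate 3. GNGT2 was not called without AKR1A1AKO replicates 1 or 5 or DKO replicate 5 (log2 fold change 0.51 to 0.58).

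Muscle genes fell in 17 of 117 cases (14.5%) and rose in 5 (4.27%) (median -0.08), and the groups within the list differed. Of 32 genes of calcium release and excitation 8 fell and 0 rose (median -0.22), of 15 myogenic factor genes 5 fell and 0 rose (median -0.25), and of 70 sarcomere genes 4 fell and 5 rose (median -0.03). Both genes under the symbol of the satellite cell factor PAX7 fell, ENSDARG00000100398 from 20, 18.6, 19.1, 16.6 and 18.3 CPM to 9.03, 10.4 and 12.6 CPM (log2 fold change -0.82, adjusted p = 7.52e-06) and ENSDARG00000070818 by 0.62. CACNB1 (ENSDARG00000002167), a subunit of the calcium channel of excitation-contraction coupling, fell by 0.74, and MYOM1 (ENSDARG00000104836), a protein of the sarcomeric M band, fell from 118, 94.4, 83.4, 55.7 and 73.5 CPM to 34.4, 35.9 and 47 CPM. The genes that rose included TNNI2 (ENSDARG00000013752), 1 of 6 genes of that fast troponin I symbol, from 5.79, 5.57, 4.31, 6.48 and 4.05 CPM to 9.59, 12.2 and 16.1 CPM (log2 fold change 1.23, adjusted p = 9.83e-06), the fast myosin gene myhb (ENSDARG00000001993) by 0.80 and pvalb3 (ENSDARG00000022817), a parvalbumin, by 0.60. The muscle creatine kinase gene ckma (ENSDARG00000035327) had a log2 fold change of 0.25 and the actin gene actc1b (ENSDARG00000099197) of 0.09, neither called. In the muscle list, 3 rose without AKR1A1AKO replicate 2. pvalb3 was not called without AKR1A1AKO replicates 1, 2 or 4 or DKO replicates 4, 5 or 6 (log2 fold change 0.52 to 0.58).

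In the extracellular matrix list 15 of 122 genes (12.3%) fell and 4 (3.28%) rose (median -0.11). There were 9 falls among 44 integrins and matrix enzymes, 5 among 46 collagens and 1 among 32 laminins and basement membrane genes. ITGAV (ENSDARG00000006314), the integrin alpha V chain, fell from 102, 112, 100.2, 89.6 and 94 CPM to 61.6, 64 and 68.8 CPM (log2 fold change -0.63, SE 0.0563, adjusted p = 1.17e-06), and COL4A2 (ENSDARG00000104110), a chain of the basement membrane collagen IV, from 13.8, 12.1, 10.4, 8.09 and 9.6 CPM to 4.16, 5.01 and 5.73 CPM (log2 fold change -1.11, adjusted p = 1.02e-05). Its partner chain gene COL4A1 (ENSDARG00000055009), chosen after its values were seen, fell by 0.91. The other collagen IV genes examined, col4a3 (ENSDARG00000003395), COL4A4 (ENSDARG00000002831) and col4a5 (ENSDARG00000052063), had log2 fold changes of 0.24, -0.12 and -0.27 and were not called, nor were the laminin genes LAMA1 (ENSDARG00000102277, -0.55, adjusted p = 1.44e-05) and LAMB1 (ENSDARG00000101209, -0.05). Col17a1b (ENSDARG00000079011), the hemidesmosomal collagen of skin, and the membrane metalloproteinase MMP16 (ENSDARG00000058876) fell by 0.73 and 0.73. Among the 4 that rose, LOX (ENSDARG00000003259), which crosslinks collagen, went from 3.78, 3.31, 4.42, 3.61 and 3.37 CPM to 4.83, 5.54 and 6.74 CPM (log2 fold change 0.60, adjusted p = 0.000905), and col28a2b, ITGA10 and mmp13b rose by 0.60 to 1.13. In the cartilage list 2 of 24 (8.33%) fell and 1 (4.17%) rose, near the 8.11% and 3.76% of all genes tested. The median was 0, with 12 genes above 0 and 12 below. The cartilage markers MATN1 and acana had log2 fold changes of 0.43 and 0.04 and were not called. SOX9 (ENSDARG00000003293), 1 of 2 genes of that chondrocyte factor, was at 24.7, 20.9, 19.9, 20.4 and 20.4 CPM and 10.8, 11.9 and 12.9 CPM and fell by 0.85 (adjusted p = 6.05e-07), the aggrecan gene acanb by 1.58, and the osteoblast factor SP7 rose by 0.70. In the extracellular matrix list, 1 rose without DKO replicate 5. In the cartilage list, 3 rose without DKO replicate 6. ITGAV was not called without AKR1A1AKO replicate 2 (log2 fold change -0.58), LOX without AKR1A1AKO replicates 2 or 5 or DKO replicates 1 or 5 (log2 fold change 0.55 to 0.57), and col28a2b without AKR1A1AKO replicate 4 or DKO replicate 5 (log2 fold change 0.51 to 0.54).

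The digestive list was called mostly in the upward direction, with 24 of 69 genes (34.8%) higher and 2 (2.9%) lower (median 0.27). The rises were unevenly spread, with 15 of 25 pancreatic enzyme genes (median 0.68) and 9 of 44 intestinal genes (median 0.18). CPM ranges were apart, with DKO higher, for only 7 of the 69, which included 4 of the pancreatic genes. Of all genes tested, 11.7% had such ranges, so most of the rises overlapped between the groups. Ctrb.3 (ENSDARG00000039730), a chymotrypsinogen, was at 42.9, 24.9, 55.8, 27 and 30.9 CPM in AKR1A1AKO and 56.6, 66.2 and 74.3 CPM in DKO libraries (log2 fold change 0.86, SE 0.167, adjusted p = 0.000777), and CEL at 1.43, 1.11, 1.9, 0.917 and 0.629 CPM and 3.65, 4.34 and 6.8 CPM (log2 fold change 1.92, adjusted p = 1.81e-05). The trypsin marker prss1 (ENSDARG00000042993) ran from 42.9 to 116.6 CPM in AKR1A1AKO and from 101.3 to 201.8 CPM in DKO libraries, a log2 fold change of 1.06. Of the intestinal genes, FABP6 (ENSDARG00000044566), the ileal bile acid binding protein, rose from 117, 95.4, 123, 82.7 and 155 CPM to 169.7, 233 and 248 CPM (log2 fold change 0.95, SE 0.135, adjusted p = 6.23e-05), and SLC10A2 (ENSDARG00000014916), the transporter that takes bile acids up, by 0.66. The chitinase gene chia.5 (ENSDARG00000116259) and the lactase gene LCT (ENSDARG00000060671) fell by 1.37 and 0.78. The intestine marker VIL1 (ENSDARG00000040466) had a log2 fold change of -0.11 and was not called. AKR1A1AKO libraries differed among themselves here. The summed level of the 76 matched genes was 1736 to 3728 CPM in AKR1A1AKO and 2386 to 3897 CPM in DKO larvae, with replicates 2 and 4 the lowest and 1 and 3 within the DKO range. When AKR1A1AKO replicate 4 was left out 17 digestive genes were called higher, and in the fit of all 23 libraries 16 were. In the digestion list, 1 fell without AKR1A1AKO replicate 1. SLC10A2 was not called without AKR1A1AKO replicate 4 (log2 fold change 0.56) and LCT without AKR1A1AKO replicates 1 or 3 or DKO replicates 1, 2, 3 or 4 (log2 fold change -0.75 to -0.61, adjusted p up to 0.0946).

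Genes of liver plasma proteins showed the same spread, and 4 of 61 (6.56%) rose and 0 fell (median 0.15). The liver fatty acid binding protein gene fabp10a (ENSDARG00000038439) was at 123, 63.5, 126, 55.8 and 65.6 CPM in AKR1A1AKO and 96, 148 and 214 CPM in DKO libraries (log2 fold change 0.79, SE 0.235, adjusted p = 0.0138), which overlapped. The other liver markers matched, tfa, serpina1 and FGB, had log2 fold changes of 0.03, 0.29 and 0.25 and were not called. The fetuin gene ahsg1, the complement inhibitor serping1 and the factor H-like gene cfhl3, all under 3 CPM, rose by 0.82 to 0.94. Among apolipoproteins and lipid transport genes 6 of 38 (15.8%) rose and 3 (7.89%) fell (median 0.22). The rise with the smallest p was that of apoeb (ENSDARG00000040295), a zebrafish apolipoprotein E, from 195, 159, 191, 170.2 and 159 CPM to 296, 306 and 375 CPM (log2 fold change 0.84, SE 0.0725, adjusted p = 8.56e-07), with no overlap. Apoea, apoc1 and apoa4b.1, all of lipoprotein particles, rose by 0.63 to 0.70, and AKR1A1AKO replicates 1 and 3 were the highest of that group for each. LPL (ENSDARG00000098720), a lipoprotein lipase, and LCAT (ENSDARG00000099424), which esterifies cholesterol in plasma, fell by 0.99 and 0.86. With library size alone, 2 of this list rose. In the liver plasma proteins list, 2 rose without AKR1A1AKO replicate 2, 10 rose without AKR1A1AKO replicate 3, 4 fell without DKO replicate 5 and the median ran from 0.06 to 0.25 over the fits without 1 library. In the apolipoprotein list, 3 rose without AKR1A1AKO replicate 2 and the median ran from 0.13 to 0.24 over the fits without 1 library. cfhl3 was not called without AKR1A1AKO replicates 1, 2, 4 or 5 or DKO replicates 1, 4 or 5 (log2 fold change 0.63 to 0.91, adjusted p up to 0.111), serping1 without AKR1A1AKO replicates 2 or 3 or DKO replicate 6 (log2 fold change 0.81 to 0.88, adjusted p up to 0.0505), and apoc1 without AKR1A1AKO replicate 2 (log2 fold change 0.57). apoa4b.1 was not called without AKR1A1AKO replicates 2 or 4 or DKO replicates 5 or 6 (log2 fold change 0.53 to 0.58) and LCAT without AKR1A1AKO replicates 1 or 3 (log2 fold change -0.73 to -0.71, adjusted p up to 0.0673).

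Lipid genes beyond the lipoproteins moved singly. In fatty acid oxidation 2 of 46 (4.35%) rose and 2 (4.35%) fell (median 0.07), the 2 ACADSB genes among them. Pparg (ENSDARG00000031848), a nuclear receptor of fat storage, fell from 2.15, 2.2, 3.16, 1.7 and 1.83 CPM to 0.577, 0.939 and 1.26 CPM (adjusted p = 0.000417). In sterol and lipid synthesis 5 of 41 (12.2%) fell and 0 rose (median -0.11). Those that fell included ME1, lpin1b (ENSDARG00000103380), a phosphatidate phosphatase, and SC5D (ENSDARG00000044642), a late enzyme of cholesterol synthesis. DGAT2 (ENSDARG00000018846), which makes triglycerides and was chosen after its values were seen, was also among them. Lpin1b, SC5D and DGAT2 fell by 0.93, 0.61 and 1.0. Xenobiotic genes went both ways, with 6 of 94 (6.38%) higher and 7 (7.45%) lower, against 3.76% and 8.11% of all genes tested (median 0.02). Ugt5a2 (ENSDARG00000093640), a glucuronosyltransferase, rose from 0.662, 0.19, 0.172, 0.0834 and 0.465 CPM to 1.46, 2.04 and 2.97 CPM (log2 fold change 2.77, adjusted p = 2.68e-05), ahr1a (ENSDARG00000020046), an aryl hydrocarbon receptor, by 1.3, and cyp2ad2 and cyp2k18 by 0.83 and 0.83. The carboxylesterase gene ces2b (ENSDARG00000101726) fell from 16.7, 12.6, 17.3, 6.09 and 7.91 CPM to 2.48, 3.55 and 4.68 CPM (log2 fold change -1.75, SE 0.246, adjusted p = 5.53e-05), and ugt2b1, ugt5a1 and cyp2k16 fell by 0.86 to 1.39. With no composition scaling, 15 fell. In the fatty acid oxidation list, 4 rose without AKR1A1AKO replicate 3. In the sterol and lipid synthesis list, 1 rose without AKR1A1AKO replicate 1, 8 fell without AKR1A1AKO replicate 4 and the median ran from -0.13 to -0.07 over the fits without 1 library. In the xenobiotic metabolism list, 11 rose without AKR1A1AKO replicate 3. SC5D was not called without AKR1A1AKO replicate 1 or DKO replicates 2 or 3 (log2 fold change -0.57 to -0.56).

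Of 30 genes of carbonyl removal tested 3 rose (10% against 3.76% of all genes) and 2 fell, glo1 included (6.67% against 8.11%, median 0.19). At an adjusted p below 0.05 without a fold threshold 14 were higher, against 20.2% of all genes. HAGH (ENSDARG00000025338), which completes the glyoxalase route, had a log2 fold change of 0.36 (adjusted p = 0.000134), below the fold threshold. The mitochondrial aldehyde dehydrogenase gene aldh2.2 (ENSDARG00000028087) rose from 30.9, 29.7, 36.5, 26.4 and 38.3 CPM to 52.1, 55.9 and 60.2 CPM (log2 fold change 0.78, SE 0.0831, adjusted p = 5.11e-06). DCXR (ENSDARG00000079271), a dicarbonyl reductase, rose by 0.75 and adh8a by 0.68, both with overlapping ranges, and aldh3a2b (ENSDARG00000029381), a fatty aldehyde dehydrogenase, fell by 0.66 (adjusted p = 0.00431). AKR1B1 (ENSDARG00000006215), 1 of 2 genes of that aldose reductase symbol, was at 27.6, 25.4, 29, 16.5 and 29.3 CPM in AKR1A1AKO and 33, 34.1 and 38.2 CPM in DKO libraries, a log2 fold change of 0.43 (adjusted p = 0.00642) that stayed below the fold threshold, and aldh3b1 (ENSDARG00000013839) was at 0.54 (adjusted p = 0.000915). For the other AKR1B1 gene (ENSDARG00000045598), aldh3a2a and aldh9a1b the log2 fold changes were -0.20, 0.11 and 0.02, with overlapping ranges. In the carbonyl detoxification list, 1 fell without AKR1A1AKO replicate 2. adh8a was not called without AKR1A1AKO replicates 2 or 4 or DKO replicates 1 or 4 (log2 fold change 0.54 to 0.63, adjusted p up to 0.0881) and aldh3a2b without AKR1A1AKO replicate 2 or DKO replicate 3 (log2 fold change -0.58).

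Of 67 glutathione and thioredoxin genes 4 (5.97%) rose and 2 (2.99%) fell (median 0.18), against 3.76% and 8.11% of all genes tested. The glutathione transferase gene gsto2 (ENSDARG00000033285) rose from 15.8, 12.9, 17.8, 9.87 and 13.2 CPM to 23.3, 28.5 and 31.3 CPM (log2 fold change 0.99, SE 0.127, adjusted p = 2.42e-05), MGST2 (ENSDARG00000071345), a membrane-bound glutathione transferase, by 0.93, gpx1b (ENSDARG00000006207), a glutathione peroxidase, by 0.61 and SOD1 (ENSDARG00000043848), the cytosolic superoxide dismutase, by 0.59. In these 4 genes the groups did not overlap. Both genes that fell, ME1 and SRXN1 (ENSDARG00000079160), a sulfiredoxin, were below 6 CPM, and SRXN1 fell by 1.37 (adjusted p = 0.00521). When only library size was scaled, 2 rose and 4 fell. In the glutathione and thioredoxin list, 2 rose without DKO replicate 4 and 4 fell without AKR1A1AKO replicate 5. gpx1b was not called without AKR1A1AKO replicate 2 or DKO replicates 2 or 4 (log2 fold change 0.54 to 0.58) and SOD1 without AKR1A1AKO replicates 2 or 4 or DKO replicates 1 or 4 (log2 fold change 0.55 to 0.58).

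Arginine and polyamine genes rose in 3 (6.98%) and fell in 2 (4.65%) of 43 cases (median 0.08), against 3.76% and 8.11% of all genes tested. CPS1 (ENSDARG00000020028), carbamoyl phosphate synthetase, the first enzyme of the mammalian urea cycle, fell from 3.92, 4.83, 2.96, 4.45 and 2.22 CPM to 0.643, 0.818 and 1.27 CPM (log2 fold change -2.06, SE 0.23, adjusted p = 7.52e-06). The glutaminase gene GLS2 (ENSDARG00000002917), 1 of 2 under that symbol, rose from 3.81, 2.93, 4.68, 1.89 and 4.21 CPM to 5.41, 7.47 and 8.27 CPM (adjusted p = 0.000465). Oaz2b (ENSDARG00000059815), an antizyme that lowers polyamine synthesis, and PAOX (ENSDARG00000003380), a polyamine oxidase, rose by 0.71 and 1.02. PAOX overlapped between the groups and was high in DKO replicate 5 alone, at 3.28 CPM. Of the 20 genes of arginine synthesis and the urea cycle, 2 fell and 1 rose. The arginine genes of this list that the study names were not called. ASS1 (ENSDARG00000103044), argininosuccinate synthase, was at 4.18 ± 0.332 CPM (SD, n = 5) in AKR1A1AKO and 4.27 ± 0.656 CPM (SD, n = 6) in DKO larvae (log2 fold change 0.02, SE 0.118), and ASL, ARG1, ODC1 and the arginine transporter SLC7A1 had log2 fold changes of 0.19, -0.07, -0.02 and 0.13, with adjusted p from 0.14 to 0.92. In the arginine and polyamine metabolism list, 1 fell without AKR1A1AKO replicate 1 and 4 fell without DKO replicate 1. PAOX was not called without AKR1A1AKO replicates 1 or 2 or DKO replicate 5 (log2 fold change 0.58 to 0.97, adjusted p up to 0.0745).

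Of the amino acid response genes 5 of 60 (8.33%) fell and 0 rose, against 8.11% and 3.76% of all genes tested. The share that fell was thus near that of all genes. The median was 0.03, with 32 genes above 0 and 28 below. SLC7A5 (ENSDARG00000099265), the large neutral amino acid transporter, was at 29.8, 27, 23.3, 22.9 and 24.3 CPM in AKR1A1AKO and 9.53, 12 and 13.2 CPM in DKO libraries (log2 fold change -1.11, SE 0.0913, adjusted p = 5.86e-07). The kinase gene eif2ak2 (ENSDARG00000068729), which senses double-stranded RNA, fell from 2.23, 2.15, 1.98, 1.67 and 1.2 CPM to 0.213, 0.335 and 0.429 CPM (log2 fold change -2.5, adjusted p = 1.49e-06), the leucyl-tRNA synthetase gene lars1a (ENSDARG00000090988) by 1.0 and DDIT4 (ENSDARG00000037618), an inhibitor of mTOR complex 1, by 0.66. CEBPB (ENSDARG00000042725), a partner of ATF4 that was chosen after its values were seen, fell by 0.87. Neither ATF4 gene was called. Atf4a (ENSDARG00000111939) was at 247, 261, 284, 259 and 228 CPM and 270.5, 303 and 328 CPM (log2 fold change 0.24, adjusted p = 0.0042) and atf4b (ENSDARG00000038141) had 0.09 (adjusted p = 0.131). Among 64 chaperone and unfolded protein genes 1 (1.56%) rose and 3 (4.69%) fell, below the shares of all genes tested (median 0.07). CALR (ENSDARG00000076290), the calcium-binding chaperone calreticulin, fell from 164, 169, 164, 155 and 148 CPM to 84, 95.7 and 109 CPM (log2 fold change -0.74, SE 0.0701, adjusted p = 1.87e-06). HSPB7 (ENSDARG00000104441), a small heat shock protein of muscle, rose by 0.94, and DNAJB9 (ENSDARG00000052072) and hsp70.3 fell by 0.62 and 0.95 with overlapping ranges. In the chaperone list, 1 fell without AKR1A1AKO replicate 1. DNAJB9 was not called without AKR1A1AKO replicates 1 or 4 or DKO replicates 3 or 6 (log2 fold change -0.57 to -0.50, adjusted p up to 0.0576) and hsp70.3 without AKR1A1AKO replicates 1 or 4 or DKO replicates 1, 2, 4 or 6 (log2 fold change -0.93 to -0.70, adjusted p up to 0.0921).

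Insulin signaling genes had 2 rises (2.06%) and 8 falls (8.25%) of 97 (median 0.01), against 3.76% and 8.11% of all genes tested. When only library size was scaled 15 fell. PIK3CA (ENSDARG00000075456), the catalytic subunit of PI3K, fell from 22.8, 19.8, 16.5, 20.2 and 19.1 CPM to 11.7, 12.2 and 13.5 CPM (log2 fold change -0.66, adjusted p = 1.07e-05), CBL (ENSDARG00000009958), a ubiquitin ligase of receptor signaling, by 0.72 and PRKAA2 (ENSDARG00000060641), a catalytic subunit of AMPK, by 1.07. PIK3CG (ENSDARG00000017757), the PI3K subunit of leukocytes, rose by 0.72 and eif4ebp3 (ENSDARG00000054916), a repressor of translation, by 0.62. The insulin receptor genes under the symbol INSR differed. ENSDARG00000071524 was at 35, 25.3, 27.9, 26.3 and 28.3 CPM in AKR1A1AKO and 20.7, 21.5 and 23.7 CPM in DKO libraries (log2 fold change -0.40, adjusted p = 0.000681, below the fold threshold), and ENSDARG00000011948 had 0.12 (adjusted p = 0.0959). In the insulin signaling list, 1 rose without AKR1A1AKO replicate 2. eif4ebp3 was not called without AKR1A1AKO replicates 2 or 4 or DKO replicates 1 or 2 (log2 fold change 0.56 to 0.58).

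In glucose and glycogen metabolism 7 of 82 (8.54%) fell and 1 (1.22%) rose, against 8.11% and 3.76% of all genes tested. The share that fell was thus near that of all genes. The median was 0, with 41 genes above 0 and 41 below. PYGM (ENSDARG00000055518), 1 of 2 genes of the muscle glycogen phosphorylase symbol, was at 185, 173, 174, 121 and 126 CPM in AKR1A1AKO and 38.3, 52.9 and 56.4 CPM in DKO libraries (log2 fold change -1.64, SE 0.122, adjusted p = 2.73e-07). The glucose transporter SLC2A1 (ENSDARG00000007412) fell from 14.3, 15, 12.8, 9.84 and 9.36 CPM to 5.26, 6.23 and 7.68 CPM (log2 fold change -0.95, adjusted p = 5.47e-05), and PPARGC1A (ENSDARG00000067829), a coactivator of mitochondrial and gluconeogenic genes, from 20.5, 18.7, 17.7, 19.6 and 20.6 CPM to 11.4, 11.9 and 12.2 CPM (log2 fold change -0.72, adjusted p = 5.41e-07). UGP2 (ENSDARG00000005578), which makes the UDP-glucose of glycogen synthesis, fell by 0.83 (adjusted p = 0.00114). Of the 2 genes of the branching enzyme symbol GBE1, ENSDARG00000099524 fell by 0.60 and ENSDARG00000029051, below 2 CPM, rose by 0.73. Of 34 glycolytic enzyme genes 1 fell and 0 rose. It was GPI (ENSDARG00000103826), 1 of 2 genes of the phosphoglucose isomerase symbol, chosen after its values were seen, which went from 94, 105, 101, 63.7 and 81.5 CPM to 10.2, 27.9 and 50.8 CPM, with DKO replicates 1 and 2 the lowest (log2 fold change -1.64, SE 0.327, adjusted p = 0.000971). FBP2 (ENSDARG00000012366), a gluconeogenic phosphatase chosen likewise, fell by 0.73. Log2 fold changes were 0.17 for the glucose transporter SLC2A2, -0.20 for the glycogen synthase GYS1 and -0.54 for SLC2A8, none called. The pyruvate kinase genes under the symbol PKM were not called, with -0.04 for ENSDARG00000099730 and 0.29 (adjusted p = 0.00379) for ENSDARG00000099860. In the glucose and glycogen list, 0 rose without AKR1A1AKO replicate 1. GBE1 ENSDARG00000099524 was not called without AKR1A1AKO replicate 1 or DKO replicates 2 or 3 (log2 fold change -0.55 to -0.54) and GBE1 ENSDARG00000029051 without AKR1A1AKO replicate 1 or DKO replicates 2 or 3 (log2 fold change 0.51 to 0.70, adjusted p up to 0.0566).

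MAPK signaling genes fell in 17 of 97 cases (17.5%) and rose in 0 (median -0.08). The falls were in 9 of 44 stress kinase genes, 5 of 33 genes of the ERK cascade and 3 of 20 phosphatase genes. MAPK8IP2 (ENSDARG00000063157), a scaffold of the JNK pathway, was at 46, 39.3, 36.3, 39.6 and 41.9 CPM in AKR1A1AKO and 20, 21.9 and 27 CPM in DKO libraries (log2 fold change -0.87, SE 0.0787, adjusted p = 1.21e-06). MAPK10 (ENSDARG00000102730), the neuronal JNK, fell by 0.63, taok2b (ENSDARG00000100620), a kinase upstream of JNK and p38, by 0.76, and NF1 (ENSDARG00000004184), 1 of 2 genes of that RAS inhibitor, by 0.59. Of the MAPK8 genes ENSDARG00000009870 fell by 0.65 (adjusted p = 0.000182), and ENSDARG00000031888 had -0.21 (adjusted p = 0.0219, not called). NF1 was not called without AKR1A1AKO replicates 1 or 4 or DKO replicates 3 or 5 (log2 fold change -0.58 to -0.55).

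Immune genes rose in 11 (12.2%) and fell in 3 (3.33%) of 90 cases (median 0.11), with 7 of 39 leukocyte genes higher. Irf1a (ENSDARG00000043492), a transcription factor of the interferon response, went from 0.965, 0.76, 0.747, 0.556 and 0.711 CPM to 1.44, 1.94 and 2.01 CPM (log2 fold change 1.29, SE 0.179, adjusted p = 4.91e-05), and mxc (ENSDARG00000024789), an antiviral GTPase, from 0.386, 0.272, 0.115, 0.584 and 0.274 CPM to 1.04, 1.17 and 1.66 CPM (adjusted p = 0.000124). The granule proteoglycan gene srgn (ENSDARG00000077069) and fcer1gl (ENSDARG00000104077), a signaling chain of Fc receptors, rose by 0.65 and 0.61. The macrophage receptor gene csf1ra (ENSDARG00000102986), SOCS3 (ENSDARG00000025428) and eif2ak2 fell. The macrophage growth factor gene csf1b (ENSDARG00000068263) had -0.05 and the leukocyte marker CORO1A (ENSDARG00000054610) -0.09, neither called. When only library size was scaled, 5 rose and 5 fell. Erythroid and heme genes fell in 5 of 32 cases (15.6%) and rose in 0 (median -0.19). Hbae1.3 (ENSDARG00000089124), a globin gene, was at 34.8, 33.2, 25.2, 30.7 and 22.6 CPM in AKR1A1AKO and 8.28, 14.7 and 26.7 CPM in DKO libraries (log2 fold change -0.88, adjusted p = 0.00561), with DKO replicate 5 within the AKR1A1AKO range, and tfr1a (ENSDARG00000101322), the transferrin receptor of red cell precursors, SLC4A1 (ENSDARG00000012881), the anion exchanger, and the factor klf1 (ENSDARG00000017400) fell by 0.88, 0.66 and 1.07. The fifth was SLC25A37 (ENSDARG00000073743), a mitochondrial iron importer below 1 CPM, chosen after its values were seen (-0.93, adjusted p = 0.048). Of the 5 globin genes tested only 1 was called, with 2 above 0 and 3 below. The red cell marker hbae1.1 (ENSDARG00000089475) had a log2 fold change of 0.05 and was not called. In the immune list, 7 rose without AKR1A1AKO replicate 5, 5 fell without AKR1A1AKO replicate 5 and the median ran from 0.05 to 0.14 over the fits without 1 library. In the erythroid list, 1 rose without AKR1A1AKO replicate 1 and 3 fell without AKR1A1AKO replicate 2. fcer1gl was not called without AKR1A1AKO replicates 3 or 5 (log2 fold change 0.53 to 0.56), csf1ra without AKR1A1AKO replicates 1 or 2 or DKO replicate 4 (log2 fold change -0.57 to -0.55), and SOCS3 without AKR1A1AKO replicate 4 (log2 fold change -0.50, adjusted p up to 0.0629). SLC4A1 was not called without AKR1A1AKO replicates 1 or 2 or DKO replicates 1, 2 or 3 (log2 fold change -0.63 to -0.52, adjusted p up to 0.101) and SLC25A37 without AKR1A1AKO replicates 2, 3, 4 or 5 or DKO replicates 1, 2, 3, 5 or 6 (log2 fold change -1.0 to -0.73, adjusted p up to 0.106).

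Of 56 endothelial genes 6 (10.7%) fell and 1 (1.79%) rose, against 8.11% and 3.76% of all genes tested (median -0.04). The markers kdrl, cdh5, FLI1 and EGFL7 had log2 fold changes of -0.1, 0.08, -0.11 and 0.36, none called. The VEGF coreceptor gene nrp1b (ENSDARG00000027290) fell from 10.1, 10.8, 7.84, 8.54 and 8.4 CPM to 4.27, 4.9 and 5.26 CPM (log2 fold change -0.93, adjusted p = 6.09e-06). The flow-responsive factor klf2a (ENSDARG00000042667) and the tight junction gene CLDN5 (ENSDARG00000043716) fell by 0.76 and 0.66. The scavenger receptor gene stab2 rose by 0.60. In the kidney list 4 of 38 (10.5%) fell and 2 (5.26%) rose, beside the same 8.11% and 3.76% (median -0.06). PAX2 (ENSDARG00000032578), a transcription factor of the pronephros and midbrain, fell from 6.56, 6.82, 7.01, 6.51 and 4.16 CPM to 2.54, 2.74 and 3.52 CPM (log2 fold change -1.13, adjusted p = 1.81e-05), the podocyte factor wt1b (ENSDARG00000007990) and WT1 (ENSDARG00000031420) fell by 0.91 and 0.84 with overlapping ranges, and lrp2b, an endocytic receptor of the tubule, rose by 0.72. The STC1 genes went apart, ENSDARG00000058476 rising by 0.62 and ENSDARG00000003303, below 0.5 CPM, falling by 1.38. Of the islet genes 2 of 23 (8.7%) fell and 1 (4.35%) rose, against 8.11% and 3.76% of all genes tested. The median was 0.17, with 15 genes above 0 and 8 below. The mean log2 CPM of the list, less its AKR1A1AKO mean, was -0.08 to 0.03 in AKR1A1AKO and 0.06 to 0.12 in DKO libraries. The fallers PCSK1 (ENSDARG00000002600) and PCSK2 (ENSDARG00000019451) are the prohormone convertases, with log2 fold changes of -0.59 and -0.66, and the riser sst1.2 is a somatostatin gene (0.72). In the endothelium list, 0 rose without AKR1A1AKO replicate 5. In the islet list, 0 rose without AKR1A1AKO replicate 4, 2 rose without AKR1A1AKO replicate 1 and 1 fell without AKR1A1AKO replicate 4. stab2 was not called without AKR1A1AKO replicate 5 or DKO replicates 1 or 3 (log2 fold change 0.55 to 0.57), PCSK1 without AKR1A1AKO replicates 4 or 5 or DKO replicates 3, 4 or 5 (log2 fold change -0.58 to -0.52), and sst1.2 without AKR1A1AKO replicate 4 (log2 fold change 0.56).

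Cell cycle genes were rarely called, 2 of 106 (1.89%) higher and 1 (0.943%) lower (median 0.04). The cohesin gene SMC1A described above and the replication gene GINS4 (ENSDARG00000016044, log2 fold change 0.61) rose. CCNF (ENSDARG00000105046), an F-box cyclin, fell from 26.5, 28.3, 27.8, 28.9 and 23.7 CPM to 11.7, 14 and 17.8 CPM (log2 fold change -0.92, SE 0.088, adjusted p = 1.9e-06). Of 84 genes that follow the clock, stress or the state at sampling 10 (11.9%) fell and 2 (2.38%) rose (median -0.02). Circadian genes had a median of 0.32, and PER1 (ENSDARG00000056885) ran at 69.6, 55.4, 78.6, 63.6 and 75.8 CPM in AKR1A1AKO and 52, 113 and 126 CPM in DKO libraries, DKO replicate 3 being below every AKR1A1AKO library and the other 5 above them all. The same library was the lowest for cry3b (ENSDARG00000091131), a cryptochrome gene, at 15.1 CPM against 42.4 to 51.5 CPM in the other 5, and that gene rose by 0.65. CLOCK (ENSDARG00000011703) fell by 0.68 and PDK1 (ENSDARG00000013128), a kinase gene in this list for its response to hypoxia, by 0.92. Immediate early genes, which respond within minutes to handling and other stimuli, fell in 7 of 32 cases and rose in 0 (median -0.21). FOSL1 (ENSDARG00000015355) was at 19.3, 9.31, 12.3, 23.7 and 2.54 CPM in AKR1A1AKO and 2.55, 2.94 and 4.2 CPM in DKO libraries (log2 fold change -2.09, adjusted p = 0.000476), and AKR1A1AKO replicate 5 lay below every DKO library while the other 4 lay above them all. FOS (ENSDARG00000031683) and KLF4 (ENSDARG00000079922), chosen after their values were seen, fell by 0.79 and 1.74, and for KLF4 replicate 5 was again within the DKO range. The time of day and order of sampling are not given in the sources used here, so their part in these genes was not tested. In skin, krt91 (ENSDARG00000036830), the most abundant gene that rose in the whole comparison, went from 2108, 1889.6, 2283, 1861 and 2134 CPM to 2697, 3216 and 3557 CPM (log2 fold change 0.61, adjusted p = 3.32e-05), and the desmosomal gene DSP (ENSDARG00000076673) fell by 0.78, out of 35 tested. That is 2.86% in each direction, below the shares of all genes tested, and the median was 0.09. Of the skin markers, krt4 had a log2 fold change of -0.31 and cyt1 of 0.43, neither called. Of 8 genes of yolk, hatching gland and pluripotency the lysosomal protease gene ctsl.1 rose by 0.90 and the hatching enzyme gene he1.1 fell by 2.18. Another abundant gene that rose was ptmab (ENSDARG00000101766), a prothymosin, from 1292, 1404, 1389.9, 1452 and 1369 CPM to 1949, 2139 and 2240.0 CPM. In the cell cycle list, 1 rose without AKR1A1AKO replicate 3. In the clock and stress list, 0 rose without AKR1A1AKO replicate 2 and 9 rose without AKR1A1AKO replicate 5. In the skin and mucus list, 0 rose without AKR1A1AKO replicate 4 and 2 rose without AKR1A1AKO replicate 3. In the early development and hatching list, 0 fell without DKO replicate 6 and 2 fell without AKR1A1AKO replicate 5. GINS4 was not called without AKR1A1AKO replicates 3 or 5 or DKO replicates 3, 4 or 6 (log2 fold change 0.56 to 0.58), PER1 without AKR1A1AKO replicates 2 or 4 or DKO replicates 1, 2, 5 or 6 (log2 fold change 0.53 to 0.58), and cry3b without AKR1A1AKO replicates 1, 2, 3 or 4 or DKO replicates 1, 2, 4, 5 or 6 (log2 fold change 0.57 to 0.66, adjusted p up to 0.0972). krt91 was not called without AKR1A1AKO replicates 2 or 4 or DKO replicates 2 or 3 (log2 fold change 0.57 to 0.58).

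To ask whether glo1 loss had the same effect with akr1a1a intact, GLO1KO was compared with WT in 12 other libraries, and the difference of the log2 fold changes was tested over all 23 libraries as an interaction. GLO1KO against WT gave 1353 genes higher (6.85%) and 3488 lower (17.7%) of 19758 tested. The interaction was called for 2689 of 20136 genes (13.4%), with 2055 positive (10.2%), meaning a higher value in the akr1a1a-deficient pair, and 634 negative (3.15%). Over the 19596 genes in all 3 tests, 1586 fell in DKO against AKR1A1AKO, and 1166 of these also fell and 20 rose in GLO1KO against WT. Of the 724 that rose, 223 also rose and 125 fell. These comparisons share no library. The interaction was called positive for 304 and negative for 5 of the 724, and positive for 149 and negative for 110 of the 1586. Both sets were chosen on the DKO against AKR1A1AKO difference, which is also a term of the interaction. Positive calls in the 724 and negative calls in the 1586 were thus favoured beforehand, and the counts are given as a description. Genetic differences between the lines enter the interaction too, and cannot be told apart from an effect of glo1 loss.

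Glo1 itself did not differ in its fall, with an interaction of 0.13 (SE 0.113, adjusted p = 0.392). The cytosolic ribosomal genes rose in both backgrounds, 48 of 71 in GLO1KO against WT (median 0.68), and the interaction was called for 0 of them by edgeR (median -0.08). Their summed level was 49178 to 53801 CPM in WT and 73308 to 83509 CPM in GLO1KO libraries. ME1, nova1, SLC6A11 and CHRM2 fell by 2.65, 1.29, 1.19 and 1.94 in GLO1KO against WT, and their interactions, 0.51, 0.07, -0.02 and 0.09, were not called. Of the 100 voltage-gated channel genes 7 rose and 32 fell in GLO1KO larvae (median -0.10), against 6.85% and 17.7% of all genes. The interaction was positive for 4 and negative for 7 (4 and 4 without WT replicate 1). The lens list had 4 negative and 1 positive call of 47 (median -0.38), and the neurotransmitter receptors 11 negative and 0 positive of 106. Over all genes 3.15% were negative and 10.2% positive.

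The comparisons differed most for the digestive tract and liver. In GLO1KO against WT 56 of 69 digestive genes fell and 0 rose (median -1.74), against 24 rises in DKO, and the interaction was called positive for 55 (median 2.01). The summed level of the digestive genes was 3676 to 9243 CPM in WT and 806 to 2220 CPM in GLO1KO libraries, beside 1736 to 3728 CPM in AKR1A1AKO and 2386 to 3897 CPM in DKO libraries. WT replicates 1 and 2, at 9243 and 7401 CPM, were the highest of all, and the other WT libraries ran from 3676 to 4537 CPM. Without WT replicate 1 the interaction was positive for 53 (median 1.75). No fit left out both of these libraries, so their joint weight was not tested. CEL fell by 2.36 in GLO1KO larvae and rose by 1.92 in DKO larvae, an interaction of 4.28 (adjusted p = 7.09e-06). Of 60 liver plasma protein genes 46 fell and 3 rose in GLO1KO (median -1.69), and the interaction was positive for 46 of 61 (46 without WT replicate 1). Here too WT replicates differed, with summed levels of 5281, 4298, 3254, 2288, 2305 and 2037 CPM in replicates 1 to 6. The apolipoprotein list had 24 positive calls of 38 (21 without WT replicate 1), the xenobiotic list 52 of 94 (43) and the extracellular matrix list 43 of 122 (30). Over all genes the interaction was called positive for 10.2% and negative for 3.15%. For fabp10a the interaction was 2.2, for ces2b 2.5 and for COL4A2 0.99. Photoreceptor genes were the reverse. In GLO1KO 35 of 70 rose (median 0.59), against 3 in DKO, and the interaction was negative for 25 (17 without WT replicate 1). GNGT2 rose by 1.25 in GLO1KO and by 0.60 in DKO larvae, an interaction of -0.64 (adjusted p = 0.000342) that was -0.58 and no longer called without WT replicate 1.

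**Figure D5:**
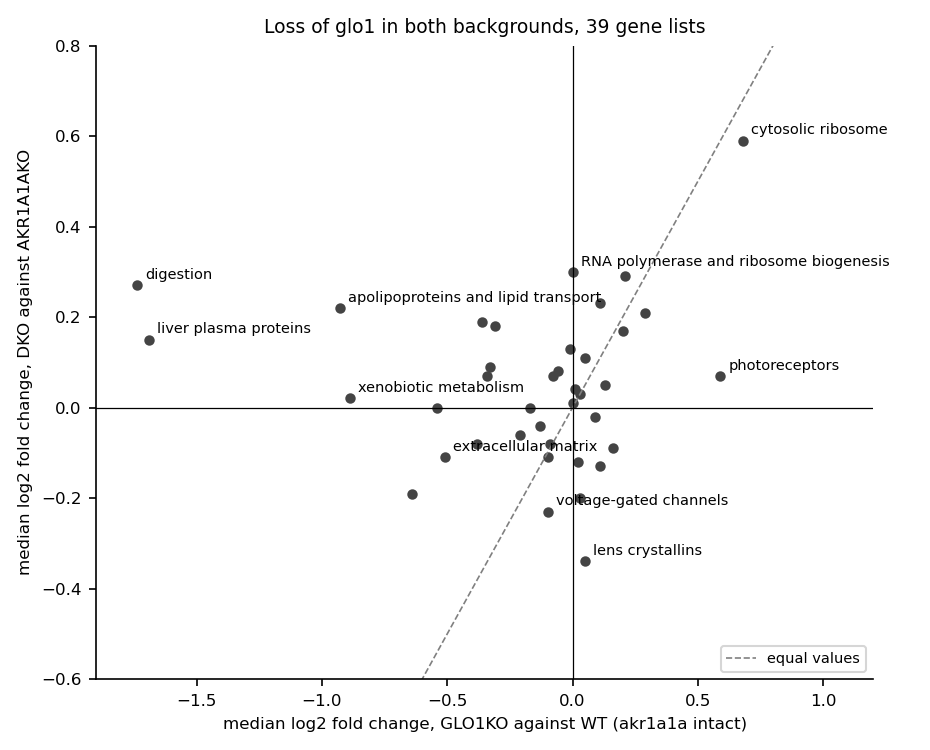
Median log2 fold change of the 39 gene lists in DKO against AKR1A1AKO larvae (vertical axis) and in GLO1KO against WT larvae (horizontal axis), with the dashed line where both are equal. The cytosolic ribosome lies near the line at 0.59 and 0.68, while digestion (0.27 and -1.74), liver plasma proteins (0.15 and -1.69) and photoreceptors (0.07 and 0.59) lie away from it.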

How the data were processed

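RNA was extracted from whole larvae at 96 hpf, with 5 AKR1A1AKO and 6 libraries each of DKO, GLO1KO and WT. Per the paper's methods and the submitters' processing notes, reads from the DNBseq platform were filtered with SOAPnuke, aligned to GRCz11 with HISAT2 and counted per gene with featureCounts 2.0.3. The annotation release, the strand setting and the handling of multi-mapping reads are not given in the sources used here, so copies of a gene and antisense neighbours may share reads. The authors deposited 1 table of gene counts, treated here as estimated counts because 94 of its 22856 genes (0.411%) held values that are not whole. These values were rounded.

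Gene names came from an Ensembl name table, which named 20170 of the genes (88.2%), and gene order from RefSeq's GRCz12tu annotation. Replicates differed by more than sampling noise in all 25 within-genotype pairs (chi-square 5.42 to 24.3 per degree of freedom), so each library was counted as 1 sample. With 34455907 to 35676522 counts per library, depth limited only genes with few counts. Genes were filtered with edgeR's filterByExpr by genotype, scaled by TMM and tested with the quasi-likelihood test of edgeR 4.0.16 (R 4.3.3), with Benjamini-Hochberg adjustment over all genes tested, and log2 CPM used a prior count of 2. The thresholds, an adjusted p of 0.05 and a fold change of 1.5, are those of the study, which used limma. The interaction was tested in 1 fit of all 23 libraries. Alternatives were DESeq2 size factors, library size only, no filter, DESeq2 1.42.0, limma-trend (limma 3.58.1), all libraries in 1 fit, other fold thresholds, a replicate block and leaving out each library. In data simulated for the DKO against AKR1A1AKO comparison (19745 genes), 50 genes with a mean above 1 CPM were changed for each fold. With no fold threshold, 74% of genes changed 1.5-fold and 98% of those changed 2-fold reached an adjusted p below 0.05, as did 18 unchanged genes. Far fewer genes were changed there than were called in the data, so the effect of many changes on the scaling was not tried.

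The genes named are glo1, the 10 that rose and the 10 that fell most (mean log2 CPM above 1, CPM ranges apart), the 5 most abundant called genes per direction, up to 4 called members per list and direction by smallest p, called genes among the 50 neighbours on each side of glo1, and genes that the study names. Some genes that this rule selects are not reported here. Any other gene is said to be chosen after its values were seen. The comparison, the gene lists and the named genes were chosen with earlier results of these data known. The lists held 2586 symbols, of which 2182 matched. The study's ifng1 did not pass the filter on low counts. No test of a gene list was run.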

Additional observations from a re-analysis of the deposited data

Results flagged for a closer look

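In 34 of 488 groups of libraries (the named genes in each genotype), 1 library lay farther from the nearest other than Dixon's 95% limit allows, 0.71 of the group's range for 5 libraries and 0.625 for 6. Chance alone gives about 1 in 20 groups. Replicate 1 of AKR1A1AKO stood apart with 24.7 CPM for SOX9, 0.303 CPM for GBE1 (ENSDARG00000029051), 48.3 CPM for NOTCH1 and 1.02 CPM for serping1. Replicate 2 of AKR1A1AKO stood apart with 0.353 CPM for si:dkey-15h8.17. Replicate 3 of AKR1A1AKO stood apart with 626 CPM for RPL34 and 1.78 CPM for chia.5. Replicate 4 of AKR1A1AKO stood apart with 18.5 CPM for ENSDARG00000114941. Replicate 5 of AKR1A1AKO stood apart with 1.81 CPM for ahr1a, 4.16 CPM for PAX2, 0.465 CPM for SMC1A, 4.32 CPM for zgc:158862, 0.985 CPM for KLF4, 4.84 CPM for znf1156, 230 CPM for PKM (ENSDARG00000099730), 20.3 CPM for SLC7A1 and 130 CPM for pde6ha. Among DKO libraries, replicate 1 stood apart with 38.2 CPM for AKR1B1 (ENSDARG00000006215) and 3.19 CPM for ahr1a. Among DKO libraries, replicate 2 stood apart with 7.62 CPM for MAPK8 (ENSDARG00000009870), 17.3 CPM for LSM8 and 9.04 CPM for TMEM63B. Among DKO libraries, replicate 3 stood apart with 6.41 CPM for hsp70.3, 375 CPM for apoeb, 52 CPM for PER1, 15.1 CPM for cry3b, 0.0302 CPM for znf1156 and 5.44 CPM for ENSDARG00000114941. Among DKO libraries, replicate 4 stood apart with 0.304 CPM for STC1 (ENSDARG00000003303). Among DKO libraries, replicate 5 stood apart with 3.28 CPM for PAOX, 0.735 CPM for disc1 and 6.8 CPM for CEL. Among DKO libraries, replicate 6 stood apart with 8.08 CPM for aldh3a2a and 9.89 CPM for srgn. AKR1A1AKO replicate 5 held the lone value most often in that genotype, and DKO replicate 3 held the low values of PER1 and cry3b.

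The log2 fold changes of DKO against AKR1A1AKO and of GLO1KO against WT differed, by edgeR's interaction test, for 86 of the 244 named genes. Of these differences 69 were positive and 17 negative. Most of these genes were named for their DKO against AKR1A1AKO difference, which is also a term of the interaction, so the counts are a description. Genetic differences between the lines cannot be told apart from an effect of glo1 loss here. For SMC1A, loc101882496 and PIGP, AKR1A1AKO alone stood below the other genotypes, and for CCNF and CALR above them. A positive value means a higher log2 fold change in DKO against AKR1A1AKO than in GLO1KO against WT. Among genes of digestion, liver and lipoproteins the difference was 4.28 for CEL, 2.15 for ctrb.3, 2.97 for LCT, 0.89 for SLC10A2, 2.2 for fabp10a, 2.24 for ahsg1, 2.9 for serping1, 0.61 for apoeb, 1.37 for apoea, 1.74 for apoc1, 2.38 for apoa4b.1 and 1.59 for LCAT. Xenobiotic, carbonyl and glutathione genes gave 2.5 for ces2b, 1.43 for ugt5a1, 3.58 for ugt5a2, 2.34 for cyp2ad2, 2.6 for cyp2k18, 1.61 for ahr1a, 1.18 for AKR1B1 (ENSDARG00000006215), 1.32 for aldh2.2, 0.64 for aldh3a2a, 1.13 for aldh3a2b, 1.13 for DCXR, 1.93 for gsto2, 0.61 for MGST2 and 0.70 for gpx1b. In carbohydrate, lipid and nitrogen metabolism the values were 1.09 for UGP2, 0.61 for SLC2A1, 1.64 for SLC2A2, 0.77 for PRKAA2, 1.58 for pparg, 3.24 for DGAT2, 1.5 for SPTSSB, 1.55 for GLS2, 0.72 for ASS1 and 0.91 for ARG1. Matrix, bone and muscle genes gave 0.94 for LOX, 0.70 for ITGA10, 0.98 for ITGA9, 1.1 for COL4A1, 0.99 for COL4A2, 1.55 for col19a1, 1.26 for col28a2b, 0.63 for LAMB1, 1.85 for acanb, 0.98 for SP7, 2.45 for myhb, 1.07 for pvalb3, 0.80 for MYOM1 and 1.83 for HSPB7. The other positive differences among named genes were 1.14 for mxc, 0.85 for csf1ra, 0.78 for PIK3CG, 1.66 for tfr1a, 1.01 for WT1, 1.08 for lrp2b, 0.65 for DSP, 0.71 for MYRF, 0.79 for polr3gla, 1.01 for cox6b1, 2.32 for PIGP, 1.6 for arhgap4a, 6.96 for SMC1A, 4.72 for loc101882496, 6.49 for si:ch211-160b11.4, 2.25 for si:ch211-39f2.3, 1.21 for si:dkeyp-55h4.2, 1.43 for ENSDARG00000109678 and 1.45 for ENSDARG00000109852. Negative differences were -7.77 for znf1156, -2.6 for FOSL1, -2.83 for ENSDARG00000114941, -1.9 for si:ch73-364h19.2, -1.87 for zgc:158862, -1.73 for ddo, -1.73 for TRPM2, -1.68 for GPI, -1.55 for si:dkey-14d8.6, -1.48 for CCNF, -1.05 for CPS1, -1.03 for CEBPB, -0.85 for opn1mw2, -0.77 for DDIT4, -0.64 for GNGT2, -0.64 for CALR and -0.61 for PYGM. The values of znf1156, SMC1A and si:ch211-160b11.4 rest on a group with almost no counts, so their size is uncertain. They ran from -9.06 to -5.12, 6.65 to 10.26 and 4.13 to 6.99 in the other fits. Over the fits with another method or without 1 library, 72 of the 86 calls were made every time, and the others were those of ITGA10, SLC2A1, lrp2b, ugt5a1, aldh3a2a, apoeb, CEBPB, PYGM, ARG1, MGST2, DSP, MYRF, LAMB1 and GNGT2.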

How the results depend on the processing

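The fall of glo1 was called in every fit, at -4.648 to -4.462 with other methods and -4.577 to -4.46 without 1 library (log2 fold change). The genotype accounted for 37.7% of the squared distances, for 44.5% and 45.1% with unscaled genes or the 500 most variable genes, and for 37.0% to 39.3% without 1 library. Beside the 2345 genes called, other methods called 2273 to 2812, and the fits without 1 library called 2127 (without AKR1A1AKO replicate 1) to 2523 (without AKR1A1AKO replicate 3), with 664 to 814 higher and 1427 to 1709 lower. Of the 2345, 2008 to 2193 were called again without 1 library. With library size alone, 426 genes were higher and 2386 lower. With no fold threshold 8117 genes were called, 3992 higher and 4125 lower, and with a fold change above 2, 615, of which 200 were higher and 415 lower. Of the gene list members, 371 were called, against 1179 with no fold threshold, 90 with a fold change above 2, 356 to 376 with other methods, and 343 (without AKR1A1AKO replicate 2) to 412 (without AKR1A1AKO replicate 3) without 1 library. The interaction was called for 2654 to 2862 genes with other methods and for 2259 (without WT replicate 1) to 3064 (without WT replicate 6) without 1 library, with 1735 to 2272 positive and 524 to 792 negative. The causes of these differences were not tested.

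No pairing of the libraries by replicate number was seen in the expression values. Whether clutches of the same number were collected or prepared together is not given in the sources used here. The correlation of same-numbered deviations from the group means was -0.121 to 0.0475 over 5 pairs, and 0 of 5 AKR1A1AKO libraries correlated best with their own number in DKO. With the replicate number as a block and DKO replicate 6 left out, 2273 genes were called, 716 higher and 1557 lower.

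Of the 244 named genes 217 were called, and 152 of these were called in all 18 other fits. None of the 217 changed sign in any of them. The calls lost with 1 library left out are given with the genes, and numbered 7 to 25 per library. When only library size was scaled 41 calls were lost, which were LOX, MRPL21, gpx1b, RPL8, SLC10A2, GINS4, SP7, pvalb3, GBE1 (ENSDARG00000029051), guca1c, POLR2F, RPS14, krt91, atp5mf, mrps26, apoa4b.1, NDUFA3, SOD1, cox6b1, stab2, eif4ebp3, PER1, STC1 (ENSDARG00000058476), NIP7, oaz2b, atp5if1a, srgn, mrpl52, cry3b, adh8a, LSM8, apoc1, col28a2b, srsf3a, ptmab, apoea, GNGT2, fcer1gl, cfhl3, COX7C and SNRPF, all genes that had risen. The fit of all libraries lost PCSK1, NF1, DGAT2, he1.1, apoa4b.1, crygm2d13, serping1, LCT, SLC25A37 and zgc:171482. The block lost GINS4, hsp70.3, pvalb3, SOCS3, GBE1 (ENSDARG00000029051), WT1, DNAJB9, PER1, crygm2d13, serping1, SLC25A37, cry3b, adh8a, LCAT and cfhl3. DESeq2 lost SLC4A1, LCT, SLC25A37, cry3b and cfhl3, limma-trend PCSK1, pvalb3, PER1, crygm2d13, SLC25A37, zgc:171482 and cry3b, and the fit with no filter SLC25A37, zgc:171482 and cfhl3.

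Among genes that were not called, the log2 fold change turned to -0.006 for INSR (ENSDARG00000011948), -0.009 for aldh3a2a, -0.102 for aldh9a1b, -0.031 for atf4b and -0.099 for ASS1 when only library size was scaled. Without 1 library it ran from -0.092 to 0.074 for ODC1, from -0.045 to 0.071 for aldh9a1b, from -0.185 to 0.078 for ARG1, from -0.062 to 0.069 for ASS1 and from -0.061 to 0.019 for PKM (ENSDARG00000099730). Genes under about 1 CPM, the called SLC25A37 and psmb12 among them, rest on few counts, and other differences at such levels may not be detectable at this depth. The p-values come from setting the difference between genotypes against the spread between clutches within them, and do not cover variation between lines.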
